A study of Homo sapiens with 6 samples.

Results

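The genes described here are those of DNA replication and DNA repair in DU145 cells, a human prostate carcinoma line that grows without androgen. They were taken from the deposited gene table as protein-coding genes with the gene symbols of the minichromosome maintenance (MCM), origin recognition (ORC), GINS, replicative polymerase, clamp loader (RFC), replication protein A (RPA), RAD, Fanconi anaemia (FANC), BRCA, mismatch repair (MSH) and XRCC families, together with CDC6, CDC45, CDT1, PCNA, RRM1, RRM2, ATM, ATR, SUPT16H and SSRP1. This rule found 66 of the 10542 listed genes. It uses names and not measured values. The table itself, however, holds only genes past an adjusted p-value of 0.05 in the same comparison, a selection made before deposit, so each member had to differ between the groups. Of 91 genes of these families written down by role, the other 25 are not analysed here.

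Polyadenylated RNA of 3 DU145-TFEB libraries, from cells given a lentivirus that overexpresses the transcription factor TFEB, was compared with that of 3 DU145-Vector libraries, from cells given the blank lentivirus. Both groups are the same cell line and carry a lentiviral integration, and the vector cells keep their own TFEB. The study sequenced these cells to ask whether TFEB plays a part in prostate cancer. The labels do not say whether the libraries of a group came from separate cultures or from more than 1 transduced population. The study's caption with the sequencing heat map speaks of 3 independent experiments without saying which panels this covers. The p-values thus measure the spread between these libraries, which may be technical. Between 13999961 and 16511477 reads per library fell on the listed genes. Values are normalized counts, which are read counts divided by 1 size factor per library, and every one of the 66 genes had at least 30 reads in each library. Libraries of 1 group differed by 2.97 to 27.2 in the mean chi-square per gene and libraries of different groups by 165 to 327, and replicate 2 stood farthest from the other 2 in each group. TFEB itself had 6325, 6301 and 6036 normalized counts in DU145-TFEB replicates 1 to 3, against 127, 124 and 125 in DU145-Vector replicates 1 to 3. Its log2 fold change was 5.62 (SE 0.075, limma adjusted p = 3.18e-10), the groups did not overlap, and the exact two-sided permutation test gave p = 0.1, the smallest that 3 against 3 libraries allow. Among epithelial, mesenchymal and prostate markers, the keratins KRT8 and KRT18 and the intermediate filament gene VIM were abundant in every library and lower in DU145-TFEB, with log2 changes of -0.68, -0.78 and -0.75, and of -1.40, -1.56 and -0.68 once a trend against GC content and gene length was removed. The part of these differences in the results was not tested, and EPCAM, CDH1 and KLK3 are not analysed here.

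Before a cell copies its DNA, the origin recognition complex, CDC6 and CDT1 load the ring-shaped MCM helicase on replication origins, a step called licensing. CDC45 and GINS then join MCM to form the active helicase (CMG), the polymerases copy the strands, PCNA holds them on DNA as a sliding clamp that RFC loads, RPA covers single strands, and the histone chaperone FACT, a dimer of SUPT16H and SSRP1, carries nucleosomes past the fork. The kinases ATR and ATM answer stalled forks and breaks, while homologous recombination, the Fanconi anaemia pathway, mismatch repair, excision repair and end joining mend the damage. Many of these genes are transcribed before and during S phase under E2F factors. TFEB is best known for lysosomal genes and binds an extended E-box.

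The promoters of 5 genes are shown because their letters bear on these 2 factors, 3 of them being all the members whose RefSeq promoter window held the extended E-box TCACGTGA and the others carrying E2F letters beside strong expression. Each runs 5′ to 3′ on the strand of the gene, from 250 bases before the RefSeq start to 20 bases after it (GRCh38.p14), with matches to the extended E-box or to E2F letters in capitals.
SUPT16H, chr14:21384000-21384269, minus strand: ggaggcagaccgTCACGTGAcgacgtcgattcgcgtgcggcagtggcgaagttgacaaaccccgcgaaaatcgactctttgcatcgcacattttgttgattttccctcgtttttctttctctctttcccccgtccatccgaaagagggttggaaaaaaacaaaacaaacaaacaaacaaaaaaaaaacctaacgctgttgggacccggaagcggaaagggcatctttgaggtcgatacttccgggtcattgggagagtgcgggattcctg
MCM2, chr3:127598161-127598430, plus strand: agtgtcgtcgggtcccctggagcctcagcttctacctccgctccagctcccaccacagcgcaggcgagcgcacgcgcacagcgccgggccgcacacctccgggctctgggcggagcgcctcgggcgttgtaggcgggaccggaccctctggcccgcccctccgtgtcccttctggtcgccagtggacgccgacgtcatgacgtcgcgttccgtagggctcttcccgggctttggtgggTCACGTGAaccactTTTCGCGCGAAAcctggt
RAD9A, chr11:67391736-67392005, plus strand: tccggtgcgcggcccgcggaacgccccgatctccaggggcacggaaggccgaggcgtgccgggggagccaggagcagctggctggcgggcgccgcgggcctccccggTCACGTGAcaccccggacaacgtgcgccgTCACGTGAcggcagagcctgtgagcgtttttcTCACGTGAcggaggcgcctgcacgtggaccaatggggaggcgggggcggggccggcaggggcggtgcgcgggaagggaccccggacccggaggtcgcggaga
MCM6, chr2:135876424-135876693, minus strand: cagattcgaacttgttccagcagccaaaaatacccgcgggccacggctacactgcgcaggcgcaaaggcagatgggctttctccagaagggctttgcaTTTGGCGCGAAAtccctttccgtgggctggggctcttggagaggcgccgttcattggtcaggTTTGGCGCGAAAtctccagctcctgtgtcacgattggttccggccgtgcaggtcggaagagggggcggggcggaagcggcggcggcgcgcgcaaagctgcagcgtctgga
PCNA, chr20:5126603-5126872, minus strand: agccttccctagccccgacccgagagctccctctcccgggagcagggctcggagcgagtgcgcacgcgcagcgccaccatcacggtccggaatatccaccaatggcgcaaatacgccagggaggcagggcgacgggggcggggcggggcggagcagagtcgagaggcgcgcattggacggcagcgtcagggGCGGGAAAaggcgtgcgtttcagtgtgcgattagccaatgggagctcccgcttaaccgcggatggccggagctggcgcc

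The extended E-box of SUPT16H began 238 bases before the start and that of MCM2 12 bases before it. RAD9A held 3 copies, beginning 143, 114 and 82 bases before the start. The expression of these 3 genes did not move in the same direction, since SUPT16H fell by 1.90 on the log2 scale while MCM2 and RAD9A were higher by 0.40 and 0.55. Once the trend against GC content and gene length was removed, however, all 3 were lower (-1.43, -0.47 and -0.43) and past the test. The median of all listed genes was then -0.30, and 53.7% of them were lower past the test. Promoter windows of 300 bases, from 250 before to 50 after the start, were found for 57 of the 66 genes, and both strands were searched. TCACGTGA was in 5.26% of them, in 1.04% of all 27305 promoters and in 2.07% of the 7619 promoters of listed genes. The core E-box CACGTG, which every extended E-box contains, was in 10.5%, against 7.43% of all promoters and 10.3% of those of listed genes. The E2F letters TTTCCCGC, TTTGGCGC, TTTCGCGC or TTTGCCGC were in 19 promoters (33.3%), against 3.33% of all and 5.51% of those of listed genes. MCM6 held 4 E2F matches that form 2 overlapping pairs, MCM2 held 1 overlapping pair just after the start, and PCNA held 1 match 59 bases before the start. Of the 19 genes with E2F letters, 6 were higher and 13 lower in DU145-TFEB, at a median log2 change of -0.92. Of the 38 without them, 12 were higher and 26 lower, with a median of -0.76. CCAAT was in 54.4% of the 57 promoters, 35.7% of all and 36.1% of those of listed genes, and TTTGAA, the core of the cell cycle homology region, was in 5.26%, 15.4% and 9.48%. These matches describe letters, and binding was not measured in these libraries.

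Replication and repair genes were lower in DU145-TFEB more often than higher, and the falls were larger. All 66 passed a limma adjusted p of 0.05, with adjustment over the 10542 listed genes, and the largest adjusted p was 0.019 for MCM5. They split into 21 that were higher, where 47.6% of the listed genes were, and 45 that were lower (68.2%), where 52.4% of the listed genes were. The cutoffs used by the study asked for an adjusted p under 0.05 together with a log2 fold change beyond 1.5 in either direction. These cutoffs were passed by 16 lower members (24.2%) and by 0 higher members. Among the listed genes, 16.5% passed them as lower and 2.54% as higher. Libraries of the groups did not overlap for 45 lower members and 20 higher members, MCM3 being the exception, against 52.0% and 47.3% of the listed genes. The median log2 fold change was -0.96 for the members and -0.36 for all listed genes. Within single libraries, the median of the members against the vector mean was -0.98, -0.95 and -0.89 in DU145-TFEB replicates 1 to 3 and -0.01, 0.08 and -0.07 in DU145-Vector. The lowest changes were -2.33 for ATR and -2.25 for MCM10. In bulk RNA, fewer cells in S phase and less RNA per cell cannot be told apart, and neither was tested. By other assays, the study reports more proliferation and colony formation with TFEB overexpressed, and larger xenograft tumors from DU145-TFEB cells. At the cutoff, FANCM (-1.56) lay just inside and RAD17 (-1.45) just outside. The split of listed genes past the cutoffs, 268 higher and 1741 lower, became 563 and 808 with quantile normalization and 484 and 1078 with DESeq2, and 10 and 9 members, respectively, then passed as lower. Without DU145-TFEB replicate 2 the count of lower members past the cutoffs was also 10, since ATM, BRCA2, RAD54B, FANCB, FANCL and FANCM no longer passed. With a trend against GC content and gene length removed, 5 members were higher, 45 were lower and 1 passed the cutoffs as lower. Of the listed genes, 15.6%, 53.7% and 4.26% then did so. The median then became -0.48 for the members and -0.30 for all listed genes.

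**Figure D1:**
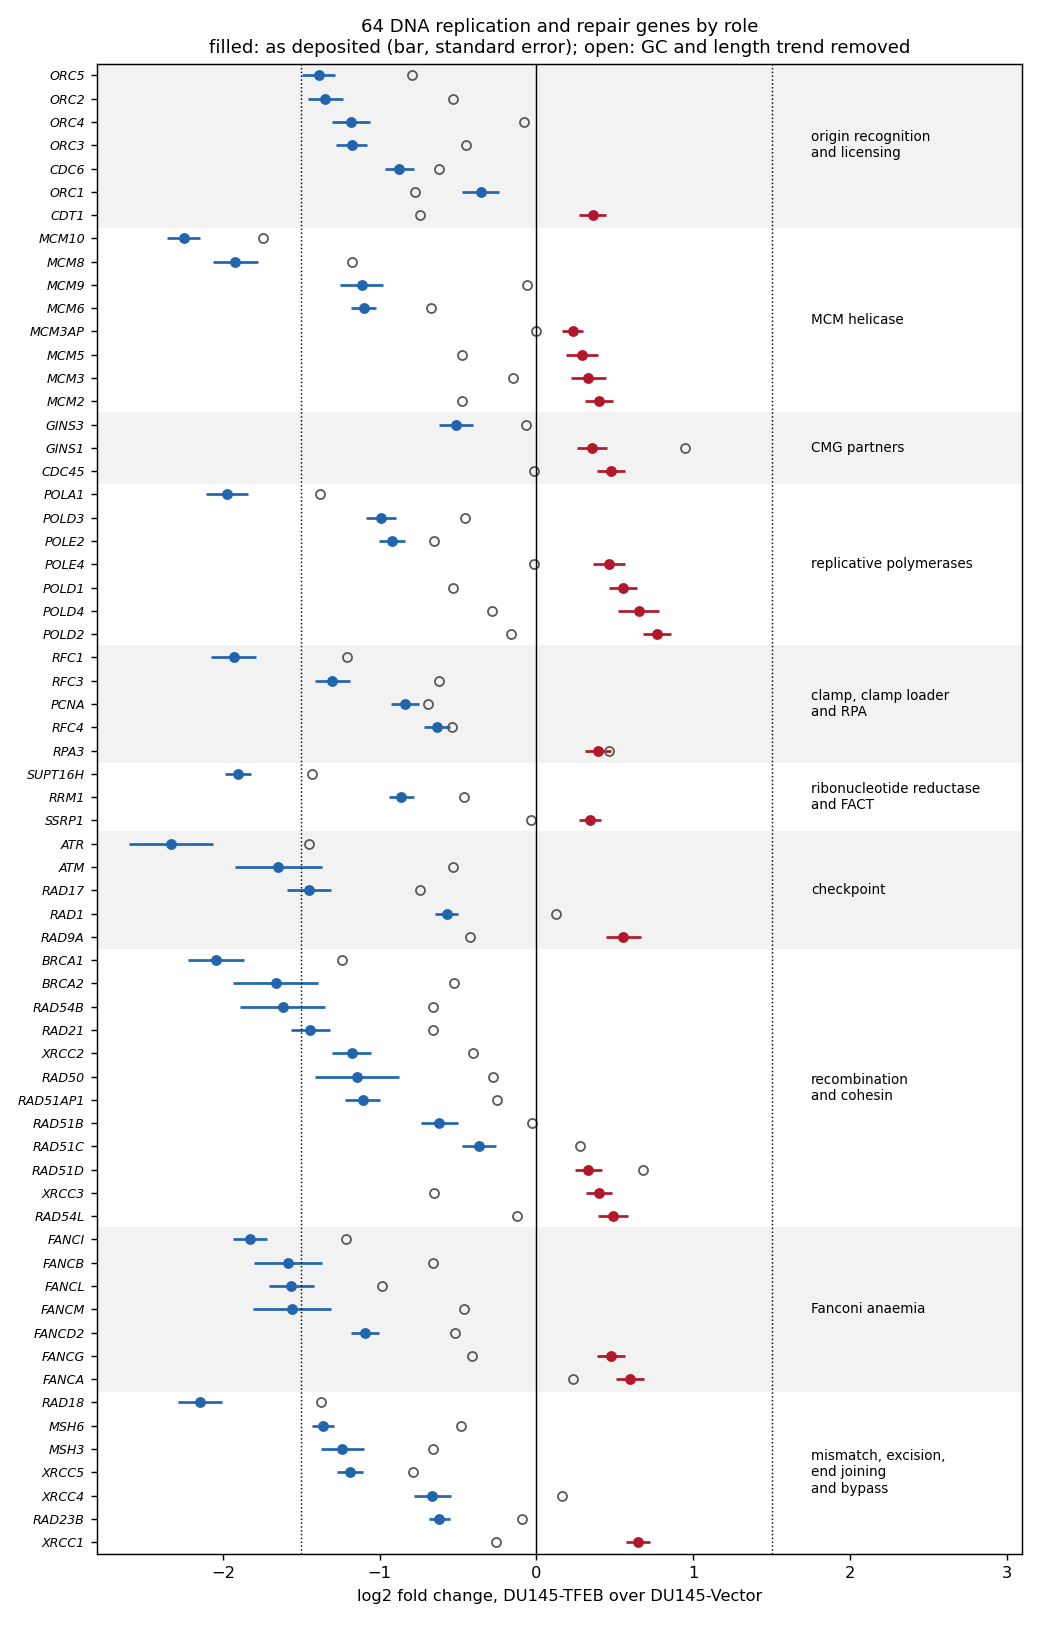
Log2 fold change of DU145-TFEB over DU145-Vector for 64 of the genes, grouped by role. Filled points with bars are the values from the deposited table with their standard errors (blue, lower; red, higher; n = 3 per group), open circles are the values after the trend against GC content and gene length was removed, and dotted lines mark the cutoffs of 1.5. The 15 genes beyond a cutoff all lie on the left, each role holds genes on both sides of 0, and 19 open circles lie on the other side of 0 from their filled point.

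Origin licensing genes were mostly lower. Of 8 genes in this role, 7 were listed, 6 of them lower and 1 higher. Their median log2 change was -1.18, and 0 passed the cutoffs. For comparison here and in the roles below, 52.4% of all listed genes were lower and 16.5% passed the cutoffs as lower. With the GC and length trend removed, 15.6% were higher, 53.7% were lower and 4.26% passed the cutoffs as lower. All 5 listed ORC subunits, which mark origins, fell: ORC5 (-1.39), ORC2 (-1.35), ORC4 (-1.18), ORC3 (-1.18) and ORC1 (-0.36, all on the log2 scale). ORC5 (chromosome 7, 104126341 to 104208047) had 243, 259 and 252 normalized counts in DU145-TFEB and 632, 734 and 619 in DU145-Vector. Every vector library was far above every TFEB library. With the trend against GC content and gene length removed, the median of the role was -0.62, ORC5 was at -0.79, ORC2 at -0.53 and ORC3 at -0.45, and ORC4 was at -0.08 and no longer passed (limma adjusted p = 0.629). Before the trend was removed ORC1 fell least, and it no longer passed with upper quartile or quantile normalization or DESeq2, or without DU145-TFEB replicate 1 (-0.27, limma adjusted p = 0.0732) or DU145-Vector replicate 2 (-0.28, limma adjusted p = 0.0612). With the trend removed, however, ORC1 was at -0.78 and past the test (limma adjusted p = 4.32e-05), close to ORC5. CDC6, the ATPase that helps load the helicase, fell by 0.87. CDT1, its loading partner, had 2068, 2294 and 2103 normalized counts in DU145-TFEB and 1775, 1521 and 1753 in DU145-Vector. It was the only licensing gene listed as higher (log2 fold change 0.36, SE 0.085, limma adjusted p = 0.00269), and its value became -0.75 once the trend was removed.

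The genes named MCM divided evenly, with 4 higher and 4 lower among the 8 listed of 10. MCM2 to MCM7 form the replicative helicase in 1 copy each. Of the 4 listed subunits, MCM2 (0.40), MCM3 (0.33) and MCM5 (0.29) were higher and MCM6 was lower (-1.10, SE 0.077). MCM6 (chromosome 2, 135839626 to 135876426) had 1715, 1998 and 1859 normalized counts in DU145-TFEB and 3949, 4166 and 3840 in DU145-Vector. MCM2 (chromosome 3, 127598223 to 127622436) had 3782, 4532 and 3659 in DU145-TFEB and 3016, 3089 and 2942 in DU145-Vector. The groups were apart for both genes and in opposite directions. The rises of MCM3 and MCM5 were small, and without DU145-Vector replicate 1 their limma adjusted p was 0.0515 and 0.0509, and without DU145-Vector replicate 3 it was 0.0611 and 0.0550. With the GC and length trend removed all 4 were negative, MCM2 at -0.47, MCM3 at -0.15, MCM5 at -0.48 and MCM6 at -0.67, and MCM3 no longer passed the test.

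MCM10, which links the helicase to the primase and is not part of the ring, had the second lowest change of all 66. It had 351, 357 and 397 normalized counts in DU145-TFEB and 1628, 2014 and 1643 in DU145-Vector, a change of -2.25 on the log2 scale (SE 0.11, limma adjusted p = 2.30e-06). The vector libraries were 4.78 times the TFEB libraries on average, with no overlap, and with the trend removed MCM10 (-1.75) was the only member still past the cutoffs. MCM8, a helicase of recombination, had 350.4, 251 and 345 in DU145-TFEB and 1137, 1348 and 1084 in DU145-Vector, a change of -1.92 with the groups well apart (-1.17 with the trend removed). MCM9, its partner, fell by 1.12, but was at -0.06 and no longer passed with the trend removed (limma adjusted p = 0.736). MCM3AP, a nuclear mRNA export factor that shares the name, was higher by 0.23, and that call too was lost.

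Of the 5 partners that turn MCM into the active helicase, 3 were listed, 2 of them higher and 1 lower. CDC45 was higher, with 1645, 1901 and 1580.4 normalized counts in DU145-TFEB and 1151, 1296 and 1229 in DU145-Vector (log2 fold change 0.48). GINS3 was lower, with 334, 335 and 308 in DU145-TFEB against 434, 524 and 442 in DU145-Vector (-0.51), a call that was lost with quantile normalization, with DESeq2 or with the trend removed (-0.07, limma adjusted p = 0.559). GINS1, another subunit of the same GINS complex, was higher by 0.36. For both CDC45 and GINS3 the groups did not overlap. GINS1 had the lowest GC content of the higher members and rose further, to 0.94, with the trend removed, while CDC45 went to -0.01 and no longer passed.

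Replicative polymerase subunits went both ways, 4 higher and 3 lower among 7 listed of 9. POLA1 is the catalytic subunit of polymerase alpha, which starts each new strand. It had 109, 114 and 113 normalized counts in DU145-TFEB and 445, 508 and 385 in DU145-Vector, a change of -1.97 on the log2 scale (SE 0.13). The vector libraries spread more than the TFEB libraries, yet the lowest of them was over 3 times the highest TFEB library. Removal of the trend left POLA1 at -1.38. For polymerase delta, the lagging strand enzyme, the catalytic subunit POLD1 (0.55) and the accessory subunits POLD2 (0.77) and POLD4 (0.65) were higher while POLD3 was lower (-0.99). POLD2 had 2961, 3415 and 2859 in DU145-TFEB and 1873, 1640.5 and 1899 in DU145-Vector, without overlap. For polymerase epsilon, the leading strand enzyme, POLE4 was higher (0.47) and POLE2 lower (-0.92). With the trend removed, 0 of the 7 were higher and 5 were lower, where 15.6% and 53.7% of all listed genes were. POLD1 (-0.53), POLD2 (-0.16), POLD4 (-0.28) and POLE4 (-0.01) changed sign, the last 2 without passing.

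Among the sliding clamp, its loader and RPA, 4 of the 5 listed genes of 10 were lower. RFC1, the large subunit of the clamp loader, had 882, 666 and 1044 normalized counts in DU145-TFEB and 3284, 3416 and 3037 in DU145-Vector, a change of -1.93. The TFEB libraries spread widely, and the highest of them was still far below the lowest vector library. Its value was -1.21 after removal of the trend. The smaller loader subunits RFC3 (-1.30) and RFC4 (-0.63) fell too. PCNA (-0.84) had 1809.8, 2034 and 1853 in DU145-TFEB and 3286, 3796 and 3127 in DU145-Vector, without overlap. RPA3, the smallest subunit of RPA, was higher in all TFEB libraries, with 1283, 1443 and 1309 against 1033, 1074 and 965 (0.39), and stayed higher (0.46) with the trend removed.

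SUPT16H and SSRP1 form FACT in equal parts, and they moved apart. SUPT16H (chromosome 14, 21351472 to 21384266) had 3988, 4004 and 4591 normalized counts in DU145-TFEB and 15721, 16785 and 14596 in DU145-Vector, a change of -1.90 on the log2 scale (SE 0.082, limma adjusted p = 2.30e-06). SSRP1 (chromosome 11, 57325985 to 57335877) had 8814, 9638 and 8505 in DU145-TFEB and 7203, 6945 and 7091 in DU145-Vector, a rise of 0.34 (SE 0.068, limma adjusted p = 0.00102). The groups did not overlap for either gene. Neither direction changed under another scaling, but with the GC and length trend removed SUPT16H was at -1.43 and SSRP1 at -0.04 and no longer past the test. RRM1, the large subunit of the reductase that makes deoxynucleotides, fell by 0.86.

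**Figure D2:**
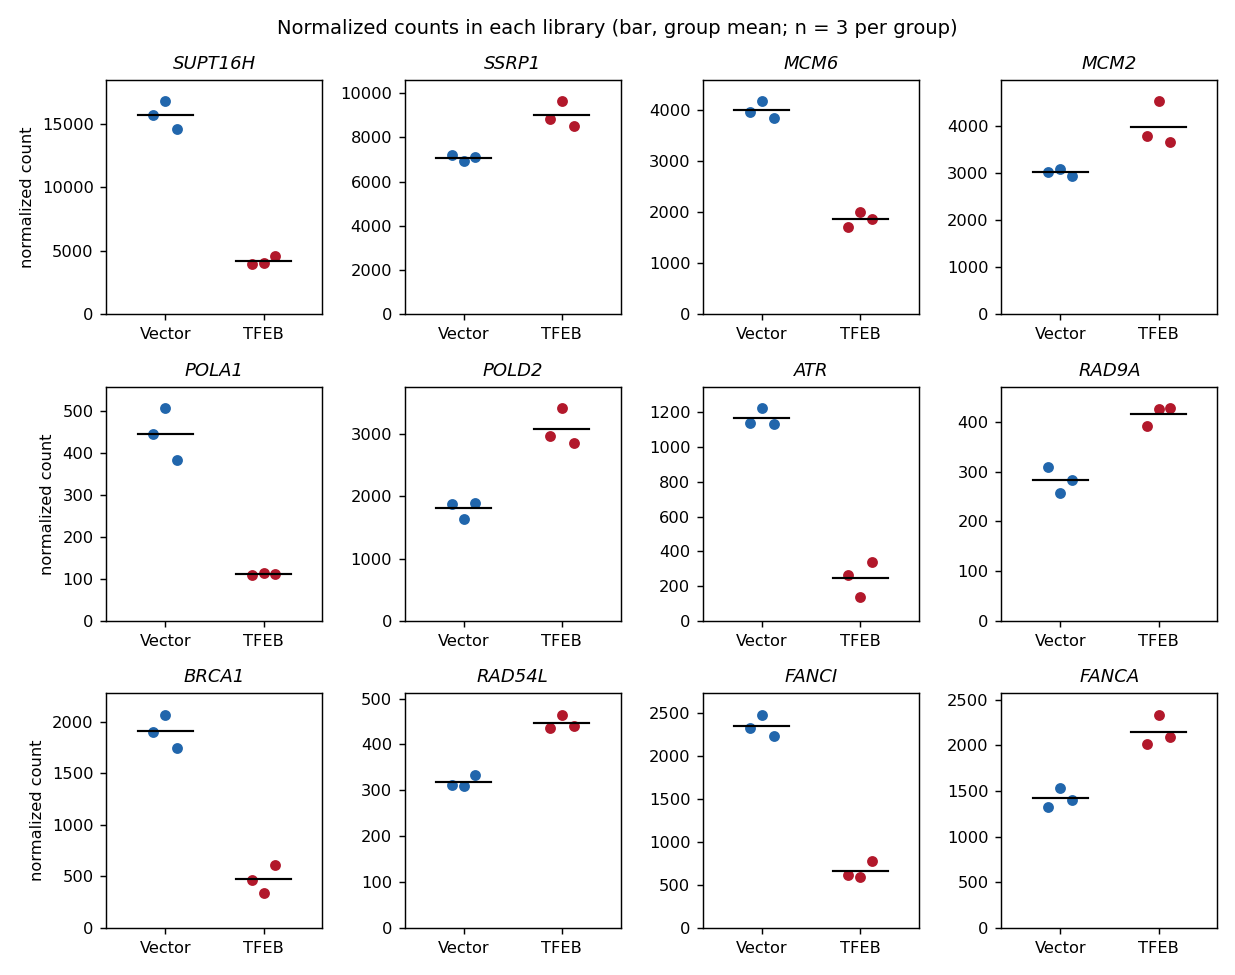
Normalized counts (y axis, from 0) in the 3 DU145-Vector (blue) and 3 DU145-TFEB (red) libraries for 12 genes, with bars at the group means. In each row a gene that was lower in DU145-TFEB stands beside one of related function that was higher, and the 2 groups are apart in every panel.

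The checkpoint genes had a median of -1.45, with 4 of 5 listed of 6 lower and 2 past the cutoffs. Without the trend the median was -0.53 and 0 passed the cutoffs. ATR, the kinase of stalled forks (chromosome 3, 142449235 to 142578826), had 265, 136 and 337 normalized counts in DU145-TFEB and 1136, 1225 and 1132 in DU145-Vector, a change of -2.33 (SE 0.27). That was lower than the -2.25 of MCM10 by less than its standard error, and by the ratio of group means ATR (4.73) lay just below MCM10 (4.78). ATM, the kinase of double-strand breaks, had 439.8, 248 and 627 in DU145-TFEB against 1164, 1505 and 1209 in DU145-Vector, a change of -1.65 (SE 0.28). For both kinases replicate 2 was the lowest TFEB library and replicate 3 the highest, and replicate 2 was the highest vector library. Their standard errors were among the largest of the 66. After removal of the trend ATR was at -1.45 and ATM at -0.53, both still past the test but not the cutoffs.

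RAD17 loads the 9-1-1 clamp, a ring of RAD9, RAD1 and HUS1 that calls ATR into action. RAD17 (-1.45) and RAD1 (-0.57) fell, whereas RAD9A was higher, with 391, 425 and 428 against 309, 257 and 283 (0.55, SE 0.11). RAD9A had the fewest counts of the 3 genes in the vector libraries, and its lowest TFEB library was above its highest vector library. With the trend removed RAD9A was at -0.43, and RAD1 was at 0.12 and no longer passed. RAD9A overlaps 5 genes on the opposite strand and 3 on its own in the annotation.

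Recombination genes and the cohesin subunit RAD21 were lower in 9 of 12 listed of 16, and 3 passed the cutoffs. Of all listed genes, 52.4% were lower and 16.5% passed the cutoffs as lower, and with the trend removed 15.6% were higher and 53.7% lower. With the trend removed, 2 of the 12 were higher, 7 were lower and 3 did not pass the test. The median then went from -1.13 to -0.34, and 0 passed the cutoffs. BRCA1, which directs breaks to recombination (chromosome 17, 43044295 to 43170245), had 465, 343 and 613 normalized counts in DU145-TFEB and 1902, 2068 and 1747 in DU145-Vector, a change of -2.04 (SE 0.18). BRCA2, which acts in the strand exchange step of recombination, had 184, 115 and 258 in DU145-TFEB against 483, 726 and 497 in DU145-Vector, a change of -1.66 (SE 0.27). RAD54B, a DNA translocase, had 57.9, 37.3 and 87.2 in DU145-TFEB against 162, 199 and 176 in DU145-Vector, a change of -1.62. In all 3 genes replicate 2 was the lowest TFEB library and also the highest vector library, and no TFEB library reached a vector library. Removal of the trend brought BRCA1 to -1.24, BRCA2 to -0.52 and RAD54B to -0.66, all still past the test but not the cutoffs. RAD54L, the paralog of RAD54B, was instead higher, with 437, 465 and 440.3 against 313, 310.1 and 333 (0.49). RAD21 (-1.44), XRCC2 (-1.18), RAD50 (-1.14) and RAD51AP1 (-1.11) fell as well. RAD50 rested on few reads, with 46.3, 27.3 and 55.0 against 111, 90.7 and 78.0. Both RAD50 (-0.28, limma adjusted p = 0.288) and RAD54L (-0.12) no longer passed with the trend removed. RAD21 was then at -0.66, XRCC2 at -0.40 and RAD51AP1 at -0.25, all still past the test.

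RAD51B, RAD51C, RAD51D and XRCC3, which form complexes that assist recombination, did not move together. RAD51B (-0.62) and RAD51C (-0.36) were lower and RAD51D (0.33) and XRCC3 (0.40) were higher. RAD51C was the only member whose direction changed under another scaling, with quantile normalization, and it did not pass with upper quartile scaling or DESeq2. It was also higher, at 0.28, with the trend removed, where RAD51D was at 0.68, XRCC3 at -0.65 and RAD51B at -0.03 and no longer past the test (limma adjusted p = 0.822).

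In the Fanconi anaemia pathway, which unhooks crosslinked strands, 5 of 7 listed genes of 10 were lower, and 4 of them passed the cutoffs. The median of -1.56 became -0.52 with the trend removed. FANCI, which with FANCD2 forms the clamp that the pathway ubiquitinates, had 618, 598 and 782 normalized counts in DU145-TFEB and 2332, 2483 and 2235 in DU145-Vector, a change of -1.83 (SE 0.11). FANCD2 itself fell by 1.09. FANCL, the ubiquitin ligase subunit, had 114, 104 and 141 in DU145-TFEB against 353, 372 and 334 in DU145-Vector, a change of -1.56. FANCB, its partner in the core complex, had 38.9, 35.5 and 59.2 in DU145-TFEB against 126, 145 and 126 in DU145-Vector, a change of -1.59. FANCM, the translocase that brings the core complex to DNA, had 108, 68.2 and 116 in DU145-TFEB against 228, 385 and 256 in DU145-Vector, a change of -1.56. Every TFEB library of these genes lay below every vector library, with FANCB on the fewest reads. Without the trend FANCI was at -1.21, FANCL at -0.98, FANCB at -0.66 and FANCM at -0.46, and all 4 still passed the test but not the cutoffs. FANCA and FANCG, which also belong to the core complex, went the other way. FANCA had 2017, 2336 and 2090.2 normalized counts against 1324, 1530.2 and 1403, a rise of 0.60 (SE 0.087), and FANCG rose by 0.48. With the trend removed FANCA was still higher (0.23) and FANCG was at -0.41.

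Mismatch repair, excision repair, end joining and bypass genes were lower in 7 of 9 listed of 12. The median of -1.19 became -0.48 with the trend removed, where 0 were higher, 6 were lower and 3 did not pass. Of all listed genes, 15.6% were then higher and 53.7% lower. RAD18, the ligase that marks PCNA for bypass of damage, had 224, 210.2 and 291 normalized counts in DU145-TFEB and 1064, 1189 and 946 in DU145-Vector, a change of -2.14 (SE 0.14), or of -1.38 without the trend. MSH6 (-1.36) and MSH3 (-1.24), which recognise mismatched bases and loops, fell. XRCC5, the larger Ku subunit of end joining, fell by 1.19, and XRCC4, which works with the end joining ligase, fell by 0.66. RAD23B, which holds the damage sensor of nucleotide excision repair, fell by 0.62. XRCC1, the scaffold of single-strand break repair, had 1121, 1108 and 1075 in DU145-TFEB against 734, 683 and 695 in DU145-Vector, a rise of 0.65 with the groups apart. With the trend removed XRCC1 was at -0.26, XRCC4 was at 0.17 and no longer passed (limma adjusted p = 0.239), and neither did RAD23B (-0.09). MSH6 was then at -0.48, MSH3 at -0.66 and XRCC5 at -0.79, all still past the test.

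Since several of these genes encode partners in 1 complex or pathway, their per-kilobase levels (normalized counts divided by the gene length in the table) were compared within each library. How that length was measured is not given in the sources used here, so these levels are approximate. SUPT16H stood at 0.415 ± 0.056 times SSRP1 in DU145-TFEB and at 1.96 ± 0.161 times SSRP1 in DU145-Vector (SD, n = 3 each), a 4.73-fold difference of the ratio. MCM6 over MCM2 was 0.556 ± 0.042 and 1.57 ± 0.029, a 2.83-fold difference. POLD3 over POLD1 was 0.217 ± 0.034 and 0.629 ± 0.070, a 2.90-fold difference. SUPT16H thus passed from above SSRP1 to below it, and so did MCM6 against MCM2 and MCM5 (0.598 and 1.57). MCM6 was below MCM3 (0.283 and 0.763) and POLD3 below POLD1 in both groups. FANCI over FANCA differed 5.32-fold, RAD17 over RAD9A 4.03-fold, POLE2 over POLE4 2.61-fold and GINS3 over GINS1 1.84-fold, each ratio being lower in DU145-TFEB. All 11 pairs compared were without overlap between the groups. Each pair set a gene that was lower over one that was higher, so this and the lower ratio in DU145-TFEB largely followed from the choice. With the GC and length trend removed, the log2 difference between SUPT16H and SSRP1 went from -2.25 to -1.40, that between FANCI and FANCA from -2.42 to -1.45 and that between GINS3 and GINS1 from -0.87 to -1.01. That between MCM6 and MCM2, however, was -0.20 with the trend removed, that between RAD17 and RAD9A went from -2.01 to -0.32, that between POLD3 and POLD1 from -1.54 to 0.08 and that between RAD1 and RAD9A from -1.13 to 0.55. For MCM6 the difference went from -1.43 to -0.53 against MCM3 and from -1.39 to -0.20 against MCM5. Between POLE2 and POLE4 the difference went from -1.39 to -0.64, and between POLD3 and POLD2 from -1.76 to -0.29. The pairs were chosen after their values were seen, and the ratios were not tested.

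**Figure D3:**
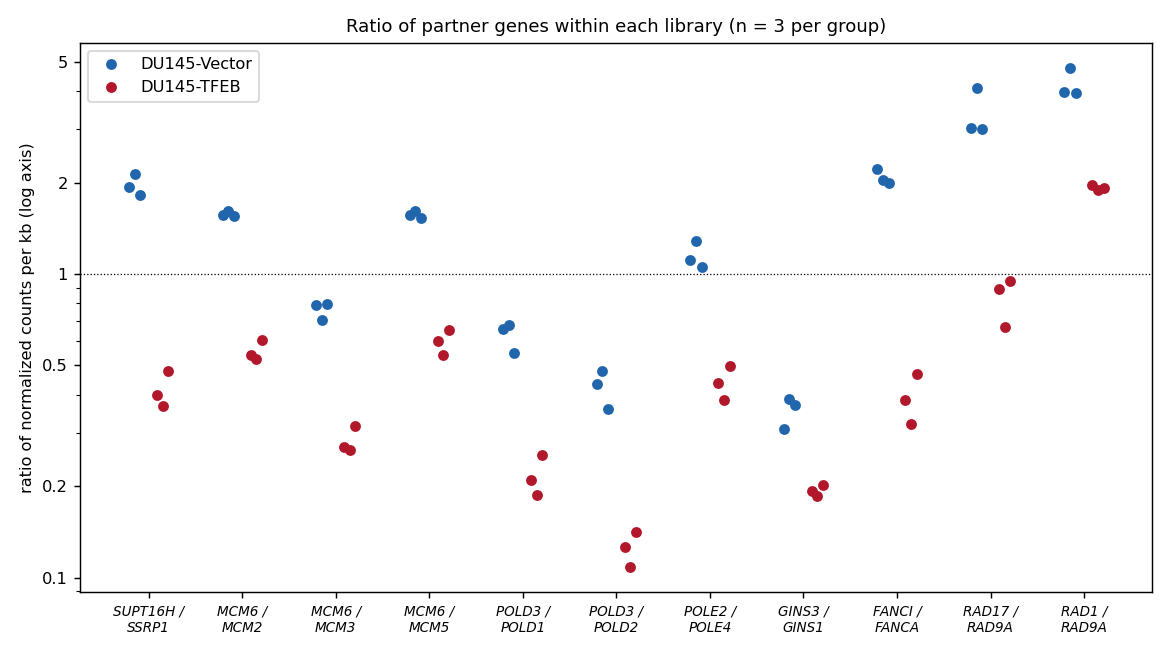
Ratio of per-kilobase normalized counts of partner genes (y axis, log scale) in each DU145-Vector (blue) and DU145-TFEB (red) library. All 11 ratios set a gene that was lower over one that was higher, and are thus lower in the 3 DU145-TFEB libraries. The dotted line marks equal levels of the 2 genes.

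By level, PCNA was the most abundant of the 66 genes in DU145-Vector, with 2313 normalized counts per kilobase (SD 238, n = 3). SUPT16H followed with 2196 (SD 153), a difference within that spread. Next came RAD23B with 1409, XRCC5 with 1384 and MCM3 with 1275 (SD 143), and neighbours among these differed by less than their spread. In DU145-TFEB the order was led by MCM3 with 1607 (SD 211), SSRP1 with 1421 (SD 92.6), FANCG with 1311 (SD 120) and PCNA with 1291 (SD 80.7), and neighbours in this order did not differ beyond their spread. SUPT16H dropped from rank 2 to rank 13, with 586 (SD 48.0). RAD50, with 9.53 per kilobase in DU145-Vector and 4.39 in DU145-TFEB, and MCM9, with 14.9 and 6.83, were the least abundant in both groups.

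The direction of change followed the base composition of the transcripts. Over the 66 genes, the log2 fold change and the GC content of the longest GENCODE 29 transcript had a Spearman's rho of 0.740, and over 10537 listed genes it was 0.739. Gene length gave -0.424 and -0.340. These points share the same 6 libraries, and no p-value is given. The listed genes were divided into 5 equal bins of GC content. In bin 1, the lowest (26.5% to 40.2%), all 16 members were lower, with a median of -1.40 where the listed genes of that bin had -1.38. In bin 2, 23 of 24 were lower, with medians of -1.17 and -1.10, and GINS1 was the exception. In bin 3, 6 of 9 were lower (-0.63 and -0.46). In bin 4 all 11 were higher (0.48 and 0.54), and in bin 5, from 58.5%, all 6 were higher (0.55 and 0.66). Among the listed genes, 97.1%, 90.7% and 61.9% were lower in bins 1 to 3, and 9.97% and 2.42% in bins 4 and 5. Past the cutoffs as lower were 7 of the 16 members in bin 1, 7 of the 24 in bin 2 and 2 of the 9 in bin 3, where 41.7%, 28.1% and 10.4% of the listed genes were. The members thus lay close to the listed genes of the same composition, and 40 of the 66 came from bins 1 and 2.

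**Figure D4:**
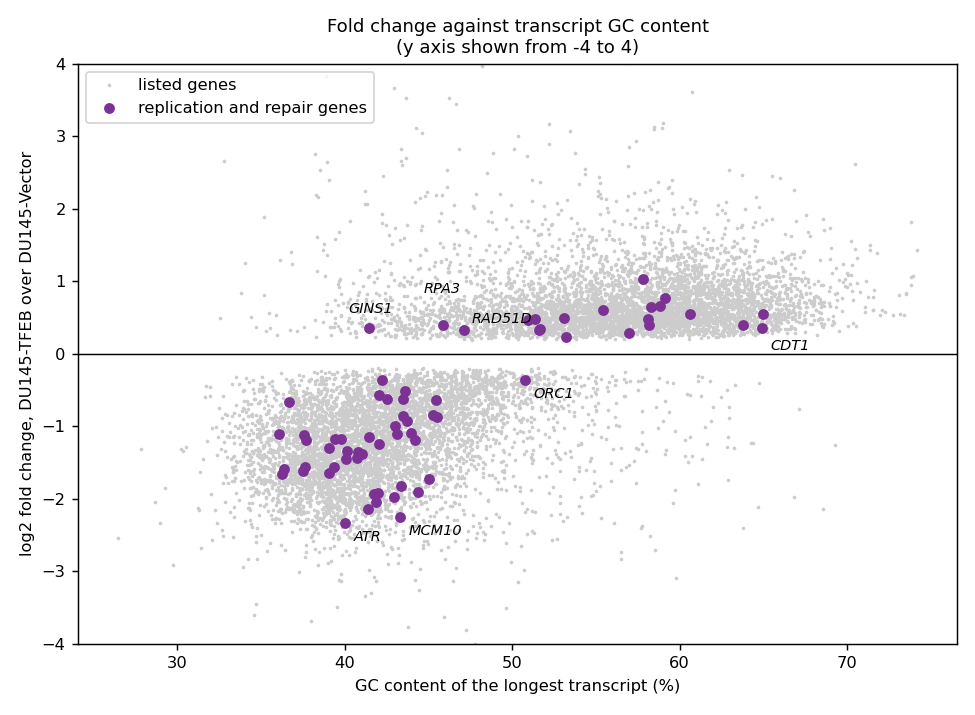
Log2 fold change of DU145-TFEB over DU145-Vector (y axis) against the GC content of the longest transcript in percent (x axis) for the listed genes (grey) and the 66 replication and repair genes (purple). All 45 lower members lie in GC bins 1 to 3, on the left. All 17 members of GC bins 4 and 5 lie above 0, as most listed genes of those bins do.

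In the annotation 39 of the 66 genes overlap a gene on the opposite strand, and the strand setting of the counting is not given in the sources used here, so their reads are uncertain.

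The same GC gradient separated the libraries. Relative to the 6-library mean, the median of GC bin 5 minus that of bin 1 came to 0.97, 1.31 and 0.69 in DU145-TFEB replicates 1 to 3 and to -0.90, -1.26 and -0.86 in DU145-Vector. Since it runs with the groups, a technical shift in the recovery of GC-rich RNA and a change in the cells cannot be told apart. When the trend against GC content and gene length was removed from each library by loess, 5 members were higher and 45 lower past a limma adjusted p of 0.05, where 15.6% and 53.7% of 10537 listed genes were. Past the cutoffs were 0 higher members and MCM10, where 1.43% and 4.26% of the listed genes were. The 5 higher genes were GINS1 (0.94), RAD51D (0.68), RPA3 (0.46), RAD51C (0.28) and FANCA (0.23). Of the 45 genes lower before, 36 remained lower, 1 was higher and 8 no longer passed, and of the 21 higher before, 4 remained higher, 9 were lower and 8 no longer passed. In all, 19 of 66 changed sign, 16 of them from higher to negative. The removal keeps a shift common to all listed genes, so a small rise can turn negative. The share of all listed genes that changed sign is not given here. The median of the members became -0.48 beside -0.30 for the listed genes.

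Genes of the same processes outside the naming rule gave a similar picture. Of 172 such genes in 9 lists, 131 were listed, 39 higher and 92 lower, with 33 lower and 0 higher past the cutoffs and a median of -0.87. The 92 were 70.2% of them and the 33 were 25.2%, where 52.4% and 16.5% of all listed genes were. Of the 131 genes, 76 lay in GC bins 1 and 2. All 76 were lower and 30 passed the cutoffs, where 93.9% and 34.9% of the listed genes in these bins did. With the trend removed, 10 of the 131 were higher, 96 were lower and 25 did not pass, where 15.6% of all listed genes were higher and 53.7% lower. The median was then -0.50, and 2 instead of 33 passed the cutoffs as lower. Both were initiation and fork genes. Of the initiation and fork genes, 19 of 25 were lower and 8 passed the cutoffs (2 without the trend), with TOP2A, which untangles daughter strands, at -2.45 and TOPBP1, the activator of ATR, at -2.27. TIMELESS (0.47) and CHTF18 (0.52), which act at the fork, were the highest of this list. Of the further recombination and crosslink genes, 16 of 18 were lower and 10 passed the cutoffs (0 without the trend, where the median went from -1.60 to -0.74), led by the helicase BRIP1 (-2.11) and the resolvase GEN1 (-2.01), while the nuclease MUS81 (0.40) and its scaffold SLX4 (0.39) were higher. Of the checkpoint genes, 8 of 9 were lower, with RIF1 at -1.99, MDM2 at -1.61 and WEE1 at -0.61, and MDC1 was higher (0.24).

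For end joining and single-strand breaks, 6 of 11 were higher, among them POLM (0.83), and POLQ (-2.08) and LIG4 (-1.90) were the lowest. Of all listed genes, 47.6% were higher and 52.4% lower, and with the GC and length trend removed 15.6% were higher and 53.7% lower. With the GC and length trend removed, 1 of these 11 was higher, 6 were lower and 4 did not pass, and their median went from 0.30 to -0.33. For mismatch and base excision repair, 7 of 13 were higher, among them the glycosylases MUTYH (0.71) and SMUG1 (0.69), and MLH3 (-2.10) and TDG (-1.40) were the lowest. Without the trend 0 of these 13 were higher, 10 were lower and 3 did not pass, and their median went from 0.28 to -0.51. For nucleotide excision repair, 13 of 17 were lower, from the nuclease ERCC4 (-1.80) and ERCC6 (-1.43), against ERCC1 (0.75), the binding partner of ERCC4, and the helicase ERCC2 (0.65). Without the trend 5 of these 17 were higher, 6 were lower and 6 did not pass, and their median went from -0.61 to -0.10. ERCC4 and ERCC1 make up 1 nuclease, and their RNAs moved in opposite directions. With the trend removed, however, ERCC4 was at -0.85 and ERCC1 at -0.01 and no longer past the test (limma adjusted p = 0.865).

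For translesion polymerases and nucleotide supply, 8 of 12 were lower, with REV3L (-2.03) and POLK (-1.88) the lowest and MAD2L2 (0.49) and NME1 (0.33) the highest. NME1 no longer passed without DU145-TFEB replicate 2 (0.18) or without any 1 of the vector libraries (0.33 to 0.34). REV3L and MAD2L2 are subunits of polymerase zeta. For S phase regulators, 14 of 20 were lower, led by the pocket protein genes RBL1 (-2.22) and RB1 (-2.03), which restrain E2F, while E2F1 (0.85) and CDK4 (0.54) were higher. E2F1 had 3337, 3821 and 3301 normalized counts in DU145-TFEB and 1948, 1861 and 1962 in DU145-Vector, with the groups apart. For chromatin assembly behind the fork, 3 were higher and 3 lower, with CHAF1A (0.64) and DNMT1 (0.47) against ASF1A (-1.16) and RBBP4 (-0.93). With the GC and length trend removed, E2F1 (-0.22), CDK4 (-0.11), CHAF1A (-0.22), ERCC1 (-0.01), ERCC2 (-0.29), POLM (-0.18), MUTYH (-0.27), MUS81 (-0.43), SLX4 (-0.26), CHTF18 (-0.56), MAD2L2 (-0.59) and MDC1 (-0.19) were negative and WEE1 was positive (0.49). DNMT1 (0.11), TIMELESS (0.05), SMUG1 (0.03), NME1 (0.22), ASF1A (-0.22), RBBP4 (-0.09) and ERCC6 (-0.34) kept their sign but no longer passed. In all, 44 of the 131 genes changed sign. The median of all listed genes was then -0.30, and their share that changed sign is not given here.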

How the data were processed

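According to the submitters' processing notes, reads were handled with CASAVA 1.8, HISAT2 2.1.0 and edgeR on GRCh38, and the study's methods name DESeq2. The counting program and its strand setting are not given in the sources used here. The authors deposited a normalized signal per gene and library, and all values were whole reads (within 0.01 read) after multiplication by 1 size factor per library (0.950 to 1.10). The authors also deposited adjusted p-values of their own comparison, used only to test the filter of the table. All 10542 listed genes were below 0.05. Their fold changes were not used.

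The fixed design named edgeR for counts and limma for normalized values. Thus log2(normalized count + 1) was tested with limma 3.58.1 (R 4.3.3, mean-variance trend, all 6 libraries, no block), with Benjamini-Hochberg adjustment over all listed genes. Fold changes are on this scale. Alternatives were DESeq2 1.42.0 and edgeR 4.0.16 on recovered reads, other scalings, pseudocounts, filters and cutoffs, left-out libraries, a replicate block, and removal of the GC and length trend by loess (span 0.5). The scripts were tested on simulated data.

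Members, role lists and pathway lists were chosen with earlier results of these data known. Named were TFEB, all members past both cutoffs, all listed MCM2 to MCM7, ORC, GINS, RPA, RFC, PCNA, BRCA, ATM, ATR, RRM1, CDC6, CDC45, CDT1 and FACT genes, the highest and lowest of each role, and up to 2 at each end of each pathway list. Other members were named after their values were seen. Some genes of these rules are counted but not reported here by name. Promoters are from RefSeq.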

Additional observations from a re-analysis of the deposited data

How the results depend on the processing

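The counts of 21 higher and 45 lower members stayed within 1.5 times under all alternatives but the removal of the GC and length trend (19 to 21 and 44 to 45 when 1 library was left out), and RAD51C (quantile normalization) was the only one of the 66 to change direction under a scaling. The count of 16 lower members past the cutoffs was 10 with upper quartile or quantile normalization, 9 with DESeq2, 1 with the GC and length trend removed and 32 at a cutoff of 1, where 1 member passed as higher. Leaving out 1 library gave 10 to 18, the 10 without DU145-TFEB replicate 2, which dropped ATM, BRCA2, FANCB, FANCL, FANCM and RAD54B. Without replicate 2 of both groups, an alternative chosen after seeing the data, the count was 10 and the median of the members -0.87. That median (-0.96) was -0.78 with upper quartile, -0.72 with quantile or DESeq2, -0.88 with edgeR and -0.48 with the trend removed, where 5 members were higher. The median of all listed genes (-0.36) was -0.30 with at least 10 reads in every library or with the trend removed, -0.40 with library size, -0.18 with upper quartile, -0.031 with quantile, -0.11 with DESeq2, -0.28 with edgeR, -0.33 without both replicates 2, and between -0.37 and -0.33 when 1 library was left out, where that of the members lay between -1.01 and -0.91. Upper quartile and quantile normalization and the DESeq2 fit, which changes the model as well as the size factors, thus shifted the median of all listed genes by more than 0.1, and that of the members moved the same way. Library size and edgeR shifted it by less. Listed genes past the cutoffs as higher (268) were 114 with a pseudocount of 5, 89 with at least 10 reads, 563 with quantile, 484 with DESeq2, 151 with the trend removed, 168 among protein-coding genes and 887 at a cutoff of 1. Those past as lower (1741) were 808 with quantile, 1078 with DESeq2, 449 with the trend removed, 3274 at a cutoff of 1 and 1103 without both replicates 2. Leaving out 1 library gave 243 to 295 higher and 1289 to 2048 lower. The causes were not tested.

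With the trend removed, where the median of all listed genes was -0.30, 19 members had the opposite sign. They were CDT1 (-0.75), MCM5 (-0.48), MCM2 (-0.47), RAD9A (-0.43), POLD2 (-0.16), MCM3 (-0.15), RAD54L (-0.12), SSRP1 (-0.037), CDC45 (-0.014), XRCC3 (-0.65), POLD1 (-0.53), FANCG (-0.41), POLD4 (-0.28), XRCC1 (-0.26), POLE4 (-0.015), MCM3AP (-0.00061), RAD1 (0.12), XRCC4 (0.17) and RAD51C (0.28). Outside the naming rule 44 of 131 had it, among them MAD2L2 (-0.59), CHTF18 (-0.56), MUS81 (-0.43), ERCC2 (-0.29), MUTYH (-0.27), SLX4 (-0.26), CHAF1A (-0.22), E2F1 (-0.22), MDC1 (-0.19), POLM (-0.18), CDK4 (-0.11), ERCC1 (-0.014) and WEE1 (0.49).

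Same-numbered libraries of the 2 groups did not deviate together (Pearson's r of -0.018, -0.246 and -0.141 across genes). With 3 libraries per group, this cannot show whether same-numbered libraries were handled together. With the replicate number as a block, 21 members were higher, 45 lower and 16 past the cutoffs, with a median of -0.96 and no change of call. All members had at least 30 reads in every library. Those with the fewest, RAD50, FANCB and RAD54B, had standard errors of 0.27, 0.21 and 0.27, among the larger of the 66, so their values are less precise.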
